A study of Mus musculus with 13 samples.

Results

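The short reproducible H3K9me3 sites of mouse embryonic stem cells are described here. They were chosen by the positions of H3K9me3 peaks alone: touching or overlapping peaks of 4 lists were merged into regions, and a region was kept if a peak of every list lay in it, if it was narrower than 2000 bp and if it lay on one of the autosomes 1 to 19. This gave 2025 short regions, which are 19.1% of the 10588 autosomal regions found in all 4 lists and 4.05% of all 50019 merged autosomal regions. The other 8563 regions found in all 4 lists, of 2000 bp or more, are called wider regions, and 39431 regions were found in fewer lists.

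The cells belong to the J1 line and carry a Setdb1 gene that can be deleted by tamoxifen. H3K27me3 was profiled in 2 libraries of cells given 2.5 µM tamoxifen and in 2 libraries of untreated cells, and H3K9me3 in 4 libraries of untreated cells. For the untreated state, the labels name DMSO as the solvent control and also give no treatment. All libraries come from the inducible knockout line, and the labels state neither the number of clones nor the length of the treatment. H3K9me3 after tamoxifen and the 5 inputs were not analysed here, so the loss of Setdb1 is not shown by these lists. H3K9me3 replicate 4 carries the antibody entry none and was placed in its group by its title. Separate cultures are not stated in the labels, and p-values therefore measure only the spread between these libraries, which may be technical.

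H3K9me3 is trimethylation of lysine 9 of histone H3, a mark of heterochromatin. In embryonic stem cells Setdb1 places it at many endogenous retroviruses, brought there by the corepressor Trim28 and zinc finger proteins with a KRAB domain. H3K27me3 is placed by Polycomb repressive complex 2, mostly over CpG-rich promoters of developmental genes, and the marks use different readers and enzymes.

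A list gives peak positions on build mm9 and nothing else, and the depth behind it is unknown. There were 15116 and 22265 H3K27me3 peaks after tamoxifen, 7041 and 17094 H3K27me3 peaks in untreated cells, and 18037 to 42725 H3K9me3 peaks, fewest in replicate 1. According to the submitters' processing notes, replicate 1 of every group was called with MACS2 2.0.10 and the rest with 2.1.0. The longer lists of the newer version therefore come with a version difference, and the parts of depth and version in a list's length cannot be told apart. H3K27me3 peaks had median widths of 729 and 727 bp after tamoxifen and of 2511 and 784 bp in untreated cells.

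Most short regions lay near the upper limit of their class. Their width ran from 307 to 1999 bp with a median of 1597 bp and an interquartile range of 1291 to 1807 bp. There were 14 regions under 500 bp, 165 from 500 to 1000 bp, 636 from 1000 to 1500 bp and 1210 from 1500 to 2000 bp. Together they spanned 3.09 Mb, against 44.9 Mb in the wider regions. Width and presence in all lists chose the regions, so these values describe the class and were not tested.

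Being short and being in every list was rare. Of all autosomal regions under 2000 bp, 21214 were in 1 list, 7629 in 2 lists, 6313 in 3 lists and 2025 in all 4. The share held by all 4 lists was 0.101% under 500 bp, 1.39% from 500 to 1000 bp, 9.54% from 1000 to 1500 bp and 25.3% from 1500 to 2000 bp. From 2000 to 2500 bp it was 44.0%, and from 10000 bp up it was 98.3%. A merged region is at least as wide as its widest peak, and the gradient follows in part from that.

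Replicate 1 decided much of the number. Its autosomal peaks had a median width of 1900 bp, against 813, 838 and 837 bp in replicates 2 to 4. The part of peak width in the number was not tested. Among the 6313 regions under 2000 bp that missed a single list, that list was replicate 1 in 5395, replicate 2 in 572, replicate 4 in 266 and replicate 3 in 80. Without replicate 1, 10304 regions under 2000 bp were held by the other 3 lists, against 2025 with all 4. Leaving out replicate 2, 3 or 4 gave 2810, 2701 and 2610.

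The narrowest short region lay on chromosome 18 from 68851664 to 68851970 (307 bp), spanned by replicate 1, with 180, 185 and 184 bp in replicates 2 to 4. The next were chr12:79451839-79452188, of 350 bp, and chr19:11917625-11918004, of 380 bp. In all of these, each list gave a single peak, and the bases common to the 4 lists numbered 180, 195 and 163. For comparison, the narrowest peaks anywhere in replicates 2 to 4 measured 173, 176 and 176 bp.

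At the upper edge of the class, the widest members measured 1999 bp on chromosome 13 from 33694968 to 33696966, and 1998 bp on chromosome 1 from 181564924 to 181566921 and on chromosome 4 from 92620645 to 92622642. Just outside were 3 regions of 2000 bp, on chromosome 8 from 72192703 to 72194702, on chromosome 10 from 48321178 to 48323177 and on chromosome 17 from 16535007 to 16537006. Bases common to all 4 lists numbered 980, 856 and 0 in the members and 897, 227 and 449 in the regions just outside.

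Most short regions held 1 peak of each list. In 1987 of 2025, or 98.1%, each of the 4 lists had exactly 1 peak, against 4636 of 8563 wider regions (54.1%). The limit of 2000 bp leaves little room for a second peak of a list, so this contrast follows in part from the rule. A short region held 4.02 peaks on average over the 4 lists, and a wider one 5.27. The 2026, 2046, 2035 and 2034 peaks in short regions had median widths of 1067, 792, 1066 and 886.5 bp in replicates 1 to 4. They made up 11.9%, 7.14%, 4.92% and 6.20% of the autosomal peaks of their lists, and the share was highest in the shortest list.

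Cover of the short regions differed between lists more than between width classes. Mean cover of a short region was 70.0% by replicate 1, 55.6% by replicate 2, 70.7% by replicate 3 and 60.4% by replicate 4, a mean of 64.2% ± 7.39 (SD, n = 4 lists). The wider regions had 74.8%, 53.8%, 68.3% and 59.4%, a mean of 64.1% ± 9.33 (SD, n = 4). Replicates 1 and 3 covered the most and replicate 2 the least in both classes. Replicate 2 was the least-covering list in 773 short regions, replicate 4 in 573, replicate 1 in 398 and replicate 3 in 288, ties counted for each list.

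The lists overlapped only in part within a short region. The most-covering list took 91.2% of a short region on average, and the least-covering list 39.4%. Bases common to all 4 lists made up 30.2% of a short region, with a median of 408 bp, against 35.9% and 1325 bp in wider regions. In 128 short regions (6.32%) no base was common to the 4 lists, so the region joined them only through a chain of overlaps, and the same held for 265 wider ones (3.09%). All 4 lists covered at least 50% of the bases in 565 short regions, or 27.9%, and in 40.7% of wider ones. The best agreement, by the least-covering list, was on chromosome 13 from 6946177 to 6948057, where the lists covered 93.7%, 91.4%, 96.0% and 99.7% of 1881 bp. Next came chromosome 17 from 55868796 to 55870738 with at least 90.5%, and chromosome 11 from 22376019 to 22377324 with at least 89.3%.

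**Figure D1:**
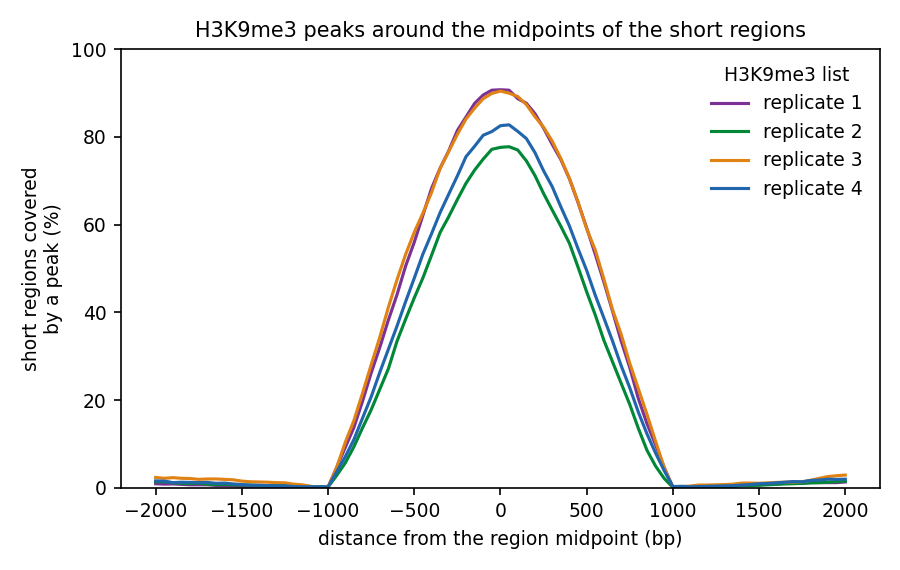
Share of the 2025 short regions covered by an H3K9me3 peak (vertical axis, percent) by distance from the region midpoint (horizontal axis, bp, every 50 bp), 1 line per list. Cover is high around the midpoint, at 90.8%, 77.6%, 90.5% and 82.6% there in replicates 1 to 4, and reaches almost 0 at 1000 bp because regions of 2000 bp or more were left out.

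The peaks of each list were centred near the middle of the merged region. The median offset between the centre of a list's peaks and the centre of the short region was 109 bp in replicate 1, 155.5 bp in replicate 2, 106.5 bp in replicate 3 and 137.5 bp in replicate 4. Mean offsets with their sign lay between 4.43 and 8.23 bp in the 4 lists. In wider regions the median offsets were 225, 261, 162 and 228.5 bp in replicates 1 to 4. A region is the union of these peaks, and the short ones were limited in width. Small offsets thus follow in part from the rule, and offsets between lists were not measured. Replicate 1 set the left border in 32.5% and the right border in 32.0% of short regions, and replicate 3 in 30.6% and 31.9%.

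Short regions lay on every autosome, most densely on chromosome 8. Their number ran from 44 on chromosome 19 to 193 on chromosome 8, and chromosome 1, with 140, came second. Per megabase, counted up to the last peak of any list, there were 0.819 short regions over all autosomes and 1.47 on chromosome 8, 1.79 times the autosomal value. The other 18 chromosomes lay between 0.620 on chromosome 16 and 0.973 on chromosome 13. Wider regions were also densest on chromosome 8, at 4.61 per megabase or 1.33 times the autosomal 3.46, but there chromosome 13 came close with 4.52. Short regions made up 24.1% of the regions in all 4 lists on chromosome 8, 22.6% on chromosome 2 and 15.3% on chromosome 16.

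Chromosome 8 had more peaks in each of the 8 lists. Its peak density was 2.14 and 1.99 times the autosomal one in the tamoxifen H3K27me3 lists, 1.49 and 1.76 times in the untreated H3K27me3 lists, and 1.24 to 1.29 times in the H3K9me3 lists. This raised density goes with the number of short regions on chromosome 8, and its part in that number was not tested. Across 19 chromosomes the densities of short and wider regions had r = 0.714 (Spearman's rho 0.575), and r = 0.612 over the 18 chromosomes other than 8. Both densities come from the same 4 lists. The density of short regions and that of H3K27me3 regions found in both untreated lists had r = 0.232 (rho 0.0404), and r = -0.111 without chromosome 8.

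**Figure D2:**
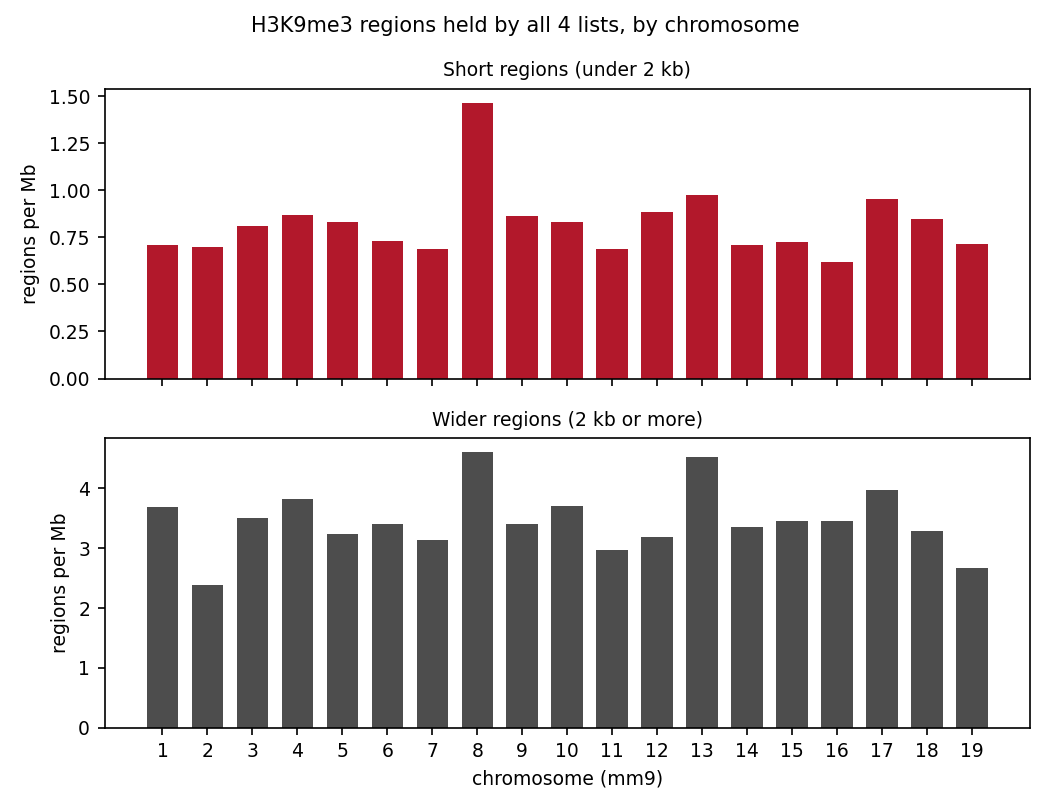
Regions held by all 4 H3K9me3 lists per megabase (vertical axes, from 0) on each autosome (horizontal axis), short regions above and wider regions below. Chromosome 8 stands above the rest for short regions at 1.47 per megabase, while for wider regions chromosomes 8 and 13 are close at 4.61 and 4.52.

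Along the chromosomes the regions were counted in bins. Cut into 2425 bins of 1 Mb from 3 Mb on, the autosomes held a short region in 1291 bins (53.2%) and a wider region in 2107 (86.9%). No bin held more than 7 short regions, and 13 bins held 5 or more, while the fullest bin of wider regions held 33. The means were 0.835 short and 3.53 wider regions per bin. These counts depend on the number of regions in each class, and clustering was not tested. The bins with the most short regions were on chromosome 4 from 133000001 to 134000000 with 7, on chromosome 11 from 28000001 to 29000000 with 7, and on chromosome 4 from 112000001 to 113000000 with 5, level with other bins. These bins held 1, 5 and 4 wider regions.

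Short regions were more isolated than wider ones. Measured from edge to edge, the next H3K9me3 region of any kind was a median of 10.7 kb away (interquartile range 3.09 to 27.8 kb), against 5.55 kb (1.25 to 17.9 kb) for wider regions. The next region of all 4 lists was 57.8 kb away (17.6 to 153.8 kb), against 36.0 kb (10.3 to 109.1 kb). Within 1 kb, 234 short regions (11.6%) had a neighbour of any kind, against 1829 wider ones (21.4%). These distances come from the lists that chose the regions and were not tested. By width, the median distance to any region was 13.6, 11.7 and 9.88 kb in short regions under 1 kb, of 1 to 1.5 kb and of 1.5 to 2 kb, and 8.19, 4.50, 4.69 and 2.84 kb in wider ones of 2 to 3, 3 to 5, 5 to 10 and 10 kb or more. To the next region of all 4 lists it was 78.1, 57.5 and 54.7 kb in the same classes of short regions, and 40.5, 29.8, 38.1 and 35.1 kb in those of wider ones. Both medians were lower in each broader class of short regions, while those of the wider classes were not in order. Without replicate 1, where regions had to be in the other 3 lists, the medians for short regions were 6.94 kb to any region and 22.2 kb to the next shared one.

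The nearest neighbour was most often a narrow region of 1 list. For 893 short regions (44.1%) the nearest neighbour was held by a single list, with a median width of 433 bp, and for 399 (19.7%) it was one of all 4 lists with a median of 3001 bp. The wider regions had 44.7% and 22.2% in these classes. From a short region, the next short region was a median of 348 kb away and lay within 10 kb in 62 cases (3.06%). From a wider region, the next short region was a median of 299.6 kb away and lay within 10 kb in 313 cases (3.66%). These distances depend on the number of short regions, which was not allowed for. The farthest from any other region were on chromosome 7 from 105893524 to 105895454 (322 kb), on chromosome 15 from 13328041 to 13329523 (275 kb) and on chromosome 19 from 10640839 to 10642535 (268 kb). The regions on chromosomes 7 and 19 had no base common to the 4 lists, and that on chromosome 15 had 727 bp.

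**Figure D3:**
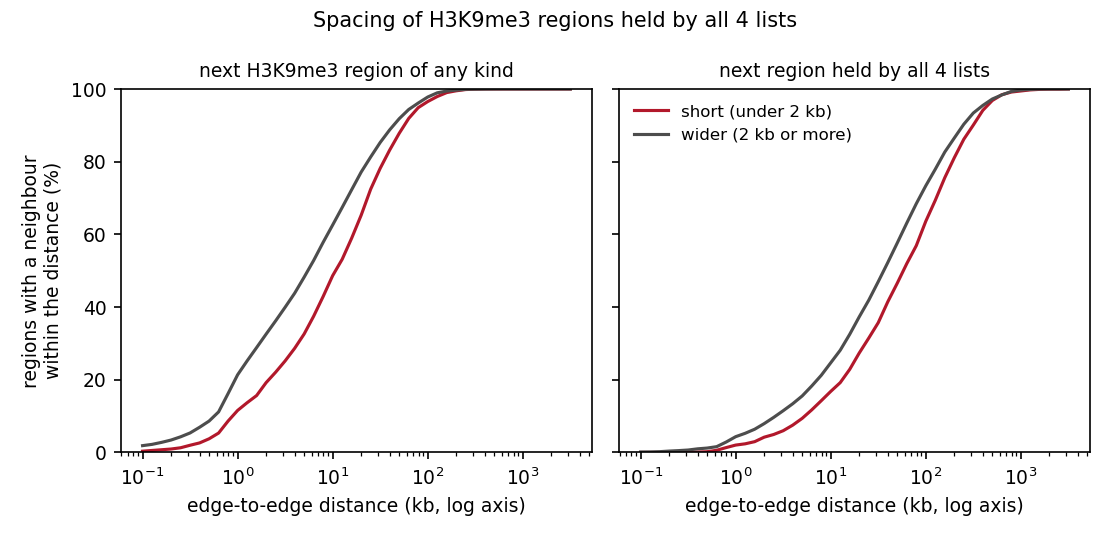
Share of regions (vertical axis, percent) with a neighbour within a given edge-to-edge distance (horizontal axis, kb, log scale), for short and wider regions of all 4 H3K9me3 lists. The line of the short regions lies to the right of that of the wider ones over most distances in both panels, with medians of 10.7 against 5.55 kb to any region and 57.8 against 36.0 kb to the next region of all 4 lists.

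H3K27me3 peaks were not used to choose the regions, so their placement could be tested over libraries. The 4 libraries, tamoxifen and untreated together, were compared at the same regions. The spread of their differences therefore leaves out the spread between H3K9me3 lists. Very few short regions carried H3K27me3. A peak overlapped 12 short regions (0.593%) in tamoxifen replicate 1, 24 (1.19%) in tamoxifen replicate 2, 7 (0.346%) in untreated replicate 1 and 23 (1.14%) in untreated replicate 2. Over all 50019 merged H3K9me3 regions the share was 0.762% and 1.14% in the tamoxifen lists and 0.61% and 0.87% in the untreated ones. In wider regions it was 0.409% and 0.923%, and 0.339% and 0.549%. The 4 differences between short and wider regions averaged 0.260 ± 0.243 percentage points (SD, n = 4 libraries, two-sided exact permutation test by sign flips, p = 0.125, the smallest that 4 libraries allow). The 95% Clopper-Pearson intervals of the short regions, 0.307% to 1.03%, 0.761% to 1.76%, 0.139% to 0.711% and 0.721% to 1.70%, contain the share over all merged regions in each list. They treat regions as independent and cover counting error only.

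In all, 32 short regions (1.58%) met H3K27me3 in at least 1 list, 11 of them in a single list, 12 in 2 lists, 5 in 3 and 4 (0.198%) in all 4. Of the wider regions, 101 (1.18%) met it in at least 1 list and 17 (0.199%) in all 4. Such counts over lists were not made for all merged H3K9me3 regions, and these shares were not tested. The region on chromosome 12 from 8305541 to 8307359, of 1819 bp, shared 1791 and 1819 bp with H3K27me3 after tamoxifen and 1635 and 1819 bp in untreated cells. On chromosome 8 the 1266 bp from 119657588 to 119658853 lay wholly inside H3K27me3 peaks in all 4 lists. On chromosome 17 from 12963167 to 12964178 (1012 bp) the shared bases were 957 and 1012 after tamoxifen and 1012 in each untreated list. The fourth, on chromosome 8 from 33996866 to 33997761 (896 bp), shared 415 and 581 bp after tamoxifen and 896 bp in each untreated list. Regions on chromosome 7 from 80744247 to 80745606 and on chromosome 19 from 37948519 to 37950437 followed with 3 lists. The narrowest region of all, the 307 bp on chromosome 18, also met H3K27me3 in 3 lists, over 234 and 188 bp after tamoxifen and over 0 and 200 bp in untreated cells. Its H3K9me3 peaks in replicates 2 to 4 were close to the narrowest of their lists, and input signal there was not examined.

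Shares of short regions near H3K27me3 were above those of wider ones in all 4 lists, and above those of all H3K9me3 regions in 3 of 4, by less. The midpoint lay within 10 kb of an H3K27me3 peak in 140 (6.91%) and 228 (11.3%) short regions in the tamoxifen lists and in 72 (3.56%) and 182 (8.99%) in the untreated lists. Over all merged H3K9me3 regions these shares were 6.31% and 10.1% with tamoxifen and 3.69% and 7.51% untreated. The 95% Clopper-Pearson intervals of the short regions were 5.85% to 8.11% and 9.91% to 12.7% with tamoxifen and 2.79% to 4.46% and 7.78% to 10.3% untreated. They contain the share over all merged regions in 3 lists and lie above it in untreated replicate 2. Wider regions had 3.26% and 5.69% with tamoxifen and 1.90% and 3.99% untreated.

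The short regions exceeded the wider ones in all 4 libraries. The ratio was 2.12 and 1.98 in the tamoxifen lists and 1.87 and 2.25 in the untreated ones. The difference averaged 3.97 ± 1.74 percentage points (SD, n = 4 libraries, two-sided exact permutation test by sign flips, p = 0.125, the smallest possible). It was 2.21 points when the regions were built without H3K9me3 replicate 1, and 2.20 when regions under 3 kb counted as short. Measured from the nearest edge of the region, so that a wide region does not push peaks away from its own midpoint, it was 3.31 points. Short regions had the higher share on 15 and 17 of 19 chromosomes in the tamoxifen lists, and on 15 and 16 in the untreated ones.

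Against other regions under 2 kb, which were not matched for width, the difference was smaller than the spread between libraries. The 35156 regions under 2 kb in fewer than 4 lists had an H3K27me3 peak within 10 kb in 7.31% and 11.6% with tamoxifen and in 4.33% and 8.68% untreated. The difference between the short regions and these was -0.308 ± 0.449 percentage points (SD, n = 4 libraries, two-sided exact permutation p = 0.25). This comparison was added with the values known. By median distance the short regions lay farther from H3K27me3 than these in all 4 libraries, by 11.5 ± 9.07 kb (SD, n = 4 libraries, p = 0.125 by exact sign-flip permutation, two-sided and the smallest possible). The 2 sets differed in width, with medians of 1597 bp in the short regions and 418 bp in the 21214 of 1 list. From 1.5 to 2 kb, short regions had 5.79% and 9.09% with tamoxifen and 3.14% and 7.02% untreated. Regions of 3 lists had 5.10% and 7.89%, and 2.50% and 5.92%. Those of 1 list were lower too, while those of 2 lists were higher in tamoxifen replicate 1, at 6.41%. From 1 to 1.5 kb the order differed between H3K27me3 lists, and none of this was tested.

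Distances gave the same order. The median distance from the midpoint to the nearest H3K27me3 peak was 147.6 and 111.8 kb for short regions in the tamoxifen lists and 247.2 and 140.8 kb in the untreated lists. For wider regions it was 198.4 and 162.6 kb with tamoxifen and 303.2 and 194.0 kb untreated. Short regions were nearer in every library, with differences of -50.9 and -50.8 kb with tamoxifen and -56.0 and -53.2 kb untreated and a mean of -52.7 ± 2.46 kb (SD, n = 4 libraries, two-sided exact permutation test by sign flips, p = 0.125, the smallest possible). The difference was -23.7 kb when regions were built without H3K9me3 replicate 1.

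The shortest regions were nearest. Among the 179 short regions under 1 kb, 16.8% and 22.9% had H3K27me3 within 10 kb in the tamoxifen lists, and 5.03% and 19.6% in the untreated lists. Short regions of 1.5 to 2 kb had 5.79% and 9.09%, and 3.14% and 7.02%. Regions of 2 to 3 kb had 3.78% and 6.23%, and 2.04% and 4.68%. Regions under 1 kb exceeded those of 1 to 2 kb by 10.8 and 12.8 percentage points with tamoxifen and by 1.62 and 11.6 points untreated, a mean of 9.20 ± 5.12 (SD, n = 4 libraries, p = 0.125 by exact sign-flip permutation, two-sided and the smallest possible). This division was chosen after the data were seen. In untreated replicate 1, the list with the fewest peaks, 9 of 179 regions were near, with a 95% Clopper-Pearson interval of 2.32% to 9.33%.

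Of the 1771 regions under 1 kb in 3 lists, 8.02% and 14.9% were near H3K27me3 with tamoxifen and 4.63% and 10.6% untreated. The 179 in all 4 lists had higher shares in each library, by little in untreated replicate 1, and this was not tested. Of the 179, 9 (5.03%) overlapped H3K27me3 in at least 1 list and 8 did so in 2 or more, against 23 of the 1846 regions of 1 to 2 kb (1.25%) and 13 of them. The inputs had no list, and no region was left out for its input signal. The part of such signal in these shares was not tested. Chromosome 8 held 25 of the 179 (14.0%) and 168 of the 1846 (9.10%). Without chromosome 8 the shares near H3K27me3 under 1 kb were 16.2% and 22.7% with tamoxifen and 5.19% and 19.5% untreated, against 4.89% and 8.76%, and 3.34% and 7.15%, from 1 to 2 kb.

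**Figure D4:**
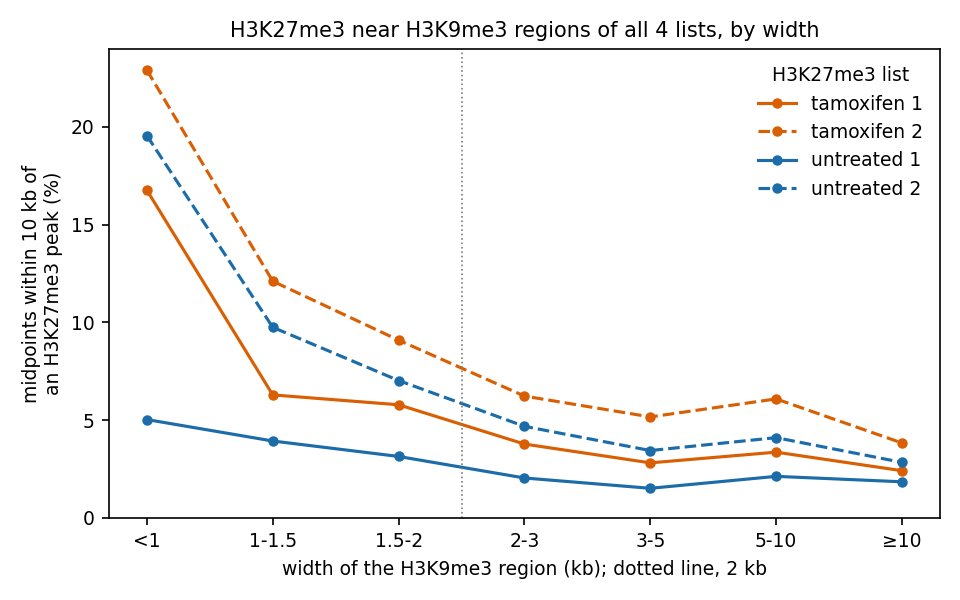
Share of regions of all 4 H3K9me3 lists whose midpoint lies within 10 kb of an H3K27me3 peak (vertical axis, percent) by region width (horizontal axis, kb, classes of unequal size), 1 line per H3K27me3 list, tamoxifen in orange and untreated in blue. Values fall with width up to 5 kb in every list, from 16.8%, 22.9%, 5.03% and 19.6% under 1 kb.

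Beside the short regions, H3K27me3 thinned out toward the edge. In the first 1 kb from the edge, 0.204% and 0.461% of bases lay in an H3K27me3 peak with tamoxifen and 0.261% and 0.378% untreated. From 75 to 100 kb away the values were 0.903% and 1.37%, and 0.927% and 1.10%. Wider regions had less throughout, at 0.132% and 0.268%, and 0.153% and 0.204%, in the first 1 kb, and 0.630% and 0.872%, and 0.654% and 0.776%, from 75 to 100 kb. From 10 to 20 kb short regions had 0.773% and 1.17% with tamoxifen and 0.731% and 0.943% untreated, against 0.511% and 0.711%, and 0.561% and 0.653%, for wider ones. Short regions thus had more H3K27me3 beside them than wider regions out to 100 kb, in each of the 4 libraries. Flanks of all merged regions and the level over the genome were not measured, so this does not show enrichment beside short regions.

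**Figure D5:**
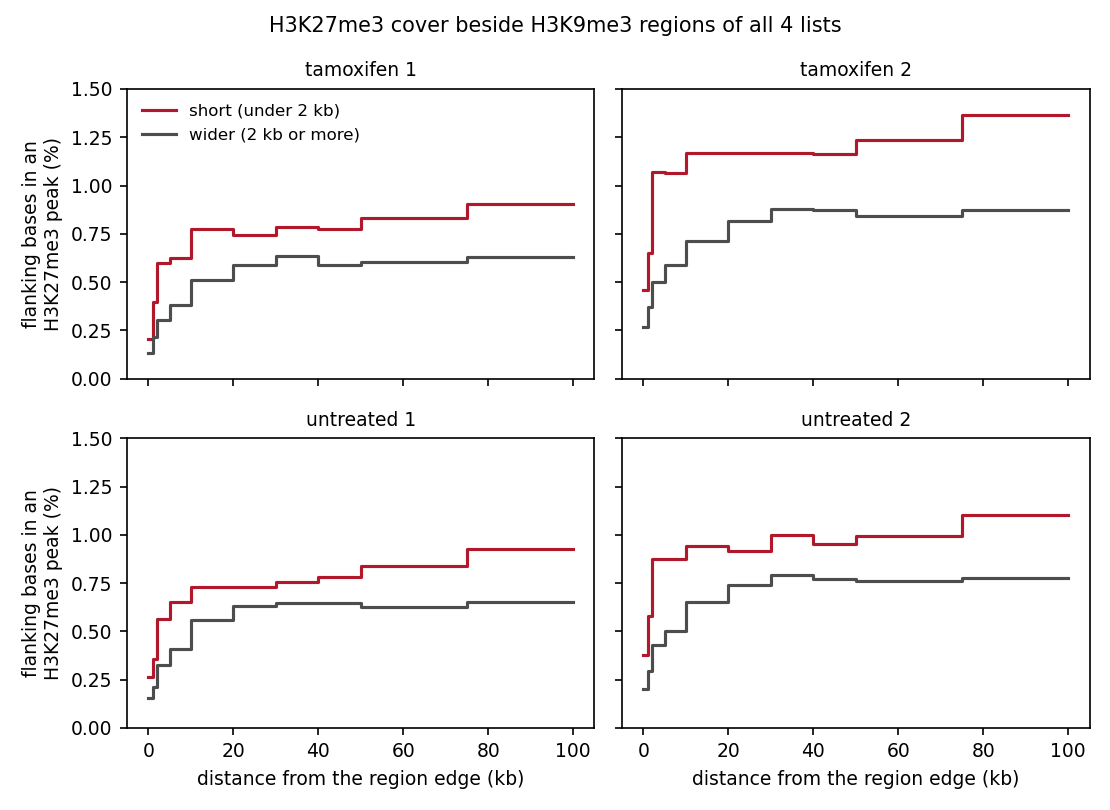
Share of flanking bases inside an H3K27me3 peak (vertical axes, percent) by distance from the region edge (horizontal axes, kb), for short and wider regions of all 4 H3K9me3 lists, 1 panel per H3K27me3 list. The line of the short regions lies above that of the wider ones at every distance and both are lowest beside the edge, where the short regions have 0.204%, 0.461%, 0.261% and 0.378%.

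On chromosome 8 short regions were near H3K27me3 more often than on the other chromosomes, by little in untreated replicate 1. There 17.1% and 23.8% had a peak within 10 kb with tamoxifen and 4.15% and 16.6% untreated, against 7.41% and 12.9%, and 3.46% and 8.73%, for wider regions. On the other 18 chromosomes short regions had 5.84% and 9.93% with tamoxifen and 3.49% and 8.19% untreated, against 2.94% and 5.14%, and 1.78% and 3.63%, for wider ones. H3K27me3 peaks were denser on chromosome 8 in all 4 lists, as given above, and their part in this was not tested.

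The design asks whether H3K27me3 changed where H3K9me3 lay once Setdb1 ablation was induced. At the short regions no such change was resolved. H3K27me3 overlapped 18 ± 8.49 short regions with tamoxifen and 15 ± 11.3 untreated (SD, n = 2 each, p = 0.667 by a two-sided exact permutation test that cannot go below 0.333). With tamoxifen 5 more were overlapped among the MACS2 2.0.10 lists, which were unlike in peak width, and 1 more among the 2.1.0 lists. The groups overlapped in value. The difference of 3 regions was 9 without tamoxifen replicate 1, -3 without tamoxifen replicate 2, -5 without untreated replicate 1, 11 without untreated replicate 2, 1.5 without chromosome 8, and 19 when regions were built without H3K9me3 replicate 1.

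Within 10 kb, H3K27me3 lay at 9.09% ± 3.07 of short regions with tamoxifen and at 6.27% ± 3.84 untreated (SD, n = 2 each, p = 0.667 in the same exact permutation test). Tamoxifen was higher by 3.36 percentage points with MACS2 2.0.10 and by 2.27 with 2.1.0, and the tamoxifen lists held more peaks in both pairs. The 2.0.10 lists were unlike, with a median peak width of 729 bp with tamoxifen and 2511 bp untreated. They covered 22.9 and 24.5 Mb, so tamoxifen had more peaks there but fewer bases. The part of this in the difference was not tested. The pooled difference of 2.81 points was 4.99 without tamoxifen replicate 1, 0.642 without tamoxifen replicate 2, 0.0988 without untreated replicate 1 and 5.53 without untreated replicate 2. Wider regions were also higher with tamoxifen, at 4.47% ± 1.72 against 2.95% ± 1.48 untreated (SD, n = 2 each). Near 10 short regions a peak was found in both tamoxifen lists and in neither untreated one, and near none in the reverse case, against 21 and 3 of the 8563 wider regions. The division by MACS2 version gave 35 short regions for the 2.1.0 lists and 1 for the 2.0.10 lists, against 78 and 8 wider regions. More regions were thus divided between the version groups of lists than between the treatment groups, among short and wider regions alike. The version groups also differ in list length, and depth and version cannot be told apart. These divisions were not counted over all merged regions. With 2 libraries a group the exact permutation test could not reach 0.05.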

How the data were processed

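ChIP-seq peak lists were deposited by the authors as start and end positions in bp, 1 list per library, with no score, height or depth. Bowtie 0.12.7, MACS2 2.0.10 or 2.1.0 and build mm9 are named per the submitters' processing notes. Of the calling mode, threshold and control nothing is given in the sources used here. Starts were read as counting from 0 and are printed counting from 1.

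Of 13 samples, 8 had a list and were grouped by title. No pair of lists shared more than 1 identical peak. Peaks were merged in Python 3.11.15 (pandas 2.3.3, NumPy 2.4.6), tested with SciPy 1.17.1 and drawn with Matplotlib 3.10.9. Code for merging, cover and distance was tested on simulated data. A list held a region with at least 1 bp. Libraries, not regions, entered the exact permutation tests. Intervals are Clopper-Pearson at 95%.

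The members, the limit of 2 kb and the measures were chosen with earlier results of these data known. Regions named by position are the 3 narrowest, the 3 on each side of 2000 bp, the 3 most isolated, the 3 best covered, 6 with H3K27me3 in the most lists and the 3 fullest bins. As alternatives, peaks up to 1 kb apart were merged, 50% cover was required, and the rest were limits of 1.5 and 3 kb, peaks of at least 300 bp, adding X, edge distances, 50 kb, each MACS2 version and leaving out each library. Leaving out chromosome 8, the comparison with regions in fewer lists and the division at 1 kb were added after seeing the data. The gene tables at hand follow another build, so no genes or sequences are given.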

Additional observations from a re-analysis of the deposited data

How the results depend on the processing

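The H3K27me3 differences between short and wider regions kept their sign under all 19 alternatives for the share, at 2.20 to 6.86 percentage points, and all 18 for the distance, at -79.0 to -23.7 kb. No p could reach 0.05 in any of them. The number of short regions was 565 when each list had to cover 50%, 815 under 1.5 kb, 4674 under 3 kb and 2610 to 10304 without 1 H3K9me3 list. The median distance to any region was 13.7 kb with merging over 1 kb, 9.10 kb at 50% cover, 12.1 kb under 1.5 kb, 9.23 kb under 3 kb, 13.4 kb with peaks of at least 300 bp and 6.94 to 13.1 kb without 1 list. To the next shared region it was 164.4 kb at 50% cover, 47.0 kb under 3 kb, 64.7 kb with peaks of at least 300 bp and 22.2 to 54.8 kb without 1 list. The stricter cover leaves fewer shared regions by construction, and otherwise the cause was not tested. Mean cover by the least-covering list was 62.0% where 50% was required. The tamoxifen difference in overlapped regions turned to -0.5 under 1.5 kb and ran from -5 to 19 without 1 list. The first library of a group has no number in its title, so numbers do not pair libraries. With the MACS2 version as a replicate block the differences were 3 regions and 2.81 points (exact sign flips p = 0.5, the smallest possible for 2 pairs). Depth is unknown, so a missing peak does not show that the mark is absent.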

Other observations

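Outside the autosomes, 36 of 217 regions in all 4 lists on chromosome X were under 2 kb. On the autosomes, 48 short regions (2.37%) and 345 wider ones (4.03%) lay in the first 2 Mb counted from 3 Mb, and 32 (1.58%) and 129 (1.51%) in the last 2 Mb. Short regions were also compared among themselves by isolation. Of the 507 with a neighbour up to 3.09 kb away, 4.34% and 9.27% had H3K27me3 within 10 kb in the tamoxifen lists and 3.16% and 6.90% in the untreated lists. Of the 506 most isolated, with no neighbour within 27.8 kb, the shares were 7.11% and 11.5% with tamoxifen and 3.56% and 8.50% untreated. The 506 with a neighbour at 3.10 to 10.7 kb had 9.09% and 11.7% with tamoxifen and 4.74% and 11.5% untreated, so the shares did not follow isolation in order.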
